A study of Mus musculus with 6 samples.

Results

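The enzymes that carry glucose to pyruvate were followed in morula-like aggregates treated with perfluorooctanoic acid (PFOA) and in aggregates given its vehicle, dimethyl sulfoxide (DMSO). The set holds 10 genes of the 18388 in the table, taken by symbol along the main route from hexokinase to pyruvate kinase: Hk1, Hk2, Gpi1, Pfkl, Aldoa, Gapdh, Pgk1, Pgam1, Eno1 and Pkm, which the table writes in capitals (HK1, HK2, GPI1, PFKL, ALDOA, GAPDH, PGK1, PGAM1, ENO1 and PKM). Morula-like aggregates are small 3-dimensional clusters used as a model of the compacting mouse embryo, and both groups were grown from mouse expanded pluripotent stem cells. The groups are 3 PFOA libraries and 3 DMSO libraries of polyadenylated RNA. Neither the dose nor the length of treatment is stated, and it is not stated whether replicates were separate cultures. The p-values therefore cover only how these libraries vary, and part of that may be technical.

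Glycolysis has a preparatory phase, in which glucose is phosphorylated and split at the expense of ATP, and a pay-off phase, in which the triose phosphates are oxidised and ATP and pyruvate are made. Most steps are catalysed by several isozymes from different genes. Pluripotent stem cells are known for a high rate of glycolysis even in oxygen, and glycolytic genes are classical targets of MYC, the factor named in the title of the series, and of the hypoxia-inducible factor HIF1A.

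Levels are given as FPKM, fragment counts scaled by transcript length and by the number of mapped fragments, which allows genes of different length to be set side by side. No difference between the groups passed the test for any of the 10 enzymes. The most positive difference was that of hexokinase 2 (Hk2), 34.4 ± 2.0 FPKM in PFOA and 29.6 ± 1.7 FPKM in DMSO (SD, n = 3 each). The most negative was that of enolase 1 (Eno1), 1632 ± 14 FPKM in PFOA and 1800 ± 78 FPKM in DMSO. A gene was called at an adjusted p under 0.05 in limma, and 0 of 10 enzymes were called, against 0.00842% of the 11876 genes tested. At an unadjusted p under 0.05 in limma, 1 enzyme was higher in PFOA and 1 lower, where the background is 8.56% of tested genes higher and 12.5% lower. In these bulk samples, fewer cells of a type and less RNA per cell cannot be told apart.

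The pluripotency markers of the labelled cell type were present, with 9 of 9 at a mean of at least 1 FPKM, and their summed level was 3685 to 4146 FPKM in PFOA and 4270 to 4486 in DMSO. The sum was dominated by Dppa5a, at 1952 ± 244 FPKM in PFOA and 2239 ± 56 in DMSO, and Pou5f1, at 885 ± 34 and 979 ± 34, while 5 of the 9 markers had a positive and 4 a negative log2 fold change. The trophectoderm list (6 of 7 markers at a mean of at least 1 FPKM) summed to 495 to 564 in PFOA and 510 to 583 in DMSO. Its marker below that level was Elf5, while Cdx2 was 5.90 to 7.23 in PFOA and 6.11 to 8.40 in DMSO. The primitive endoderm list (1 of 6) summed to 4.29 to 4.58 in PFOA and 3.89 to 4.92 in DMSO, the fibroblast list (6 of 8) to 19.7 to 21.8 in PFOA and 21.3 to 26.0 in DMSO, and the 2-cell-like list (5 of 6) to 49.4 to 52.7 in PFOA and 49.4 to 50.9 in DMSO. FPKM summed over all genes to between 585739 and 630644 in PFOA and between 641975 and 657239 in DMSO, so that a fixed share of the total is a lower FPKM in PFOA. The part of these differences in the results was not tested, apart from the fit with equal totals given below.

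Promoter sequence is shown for 4 of the 5 enzymes whose 3 PFOA values all lay on the same side of the 3 DMSO values, which are Hk2, Gpi1 and Pgk1 (higher in PFOA) and Eno1 and Pkm (lower). Each is the 250 bases before a RefSeq transcript start on GRCm38.p6, 5′ to 3′ on the gene's own strand. Capitals mark ACGTG or its reverse complement CACGT, a form of the core of the element that HIF binds. The form GCGTG was not searched for and is not marked. The window of Pkm overlaps an annotated first exon and is not shown. The start used for Eno1 lies 244 bases from that of its longest GENCODE coding transcript, and overlap of its window with an exon was not tested.
Hk2, chr6:82774455-82774704, minus strand: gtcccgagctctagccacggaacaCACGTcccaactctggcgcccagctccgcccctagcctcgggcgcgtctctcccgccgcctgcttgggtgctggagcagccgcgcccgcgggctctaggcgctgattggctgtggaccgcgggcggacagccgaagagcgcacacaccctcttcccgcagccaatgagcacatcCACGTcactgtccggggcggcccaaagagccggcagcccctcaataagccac
Gpi1, chr7:34230337-34230586, minus strand: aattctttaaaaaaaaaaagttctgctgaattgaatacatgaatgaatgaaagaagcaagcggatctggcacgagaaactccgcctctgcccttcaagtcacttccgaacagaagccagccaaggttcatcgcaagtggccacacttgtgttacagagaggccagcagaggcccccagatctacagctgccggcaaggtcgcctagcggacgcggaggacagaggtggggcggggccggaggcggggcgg
Pgk1, chrX:106186850-106187099, plus strand: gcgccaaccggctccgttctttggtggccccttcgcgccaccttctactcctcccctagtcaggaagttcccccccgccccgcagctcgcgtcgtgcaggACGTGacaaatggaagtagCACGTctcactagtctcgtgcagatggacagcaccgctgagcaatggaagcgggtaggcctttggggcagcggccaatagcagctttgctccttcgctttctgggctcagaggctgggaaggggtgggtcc
Eno1, chr4:150236458-150236707, plus strand: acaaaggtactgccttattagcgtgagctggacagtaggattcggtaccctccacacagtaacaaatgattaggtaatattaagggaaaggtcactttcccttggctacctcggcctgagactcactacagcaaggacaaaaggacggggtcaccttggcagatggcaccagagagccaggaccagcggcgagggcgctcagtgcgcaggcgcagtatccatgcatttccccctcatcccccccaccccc

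ACGTG, on either strand, stood at 226 and 52 bases upstream of the start in Hk2 and at 150 and 131 bases in Pgk1. It was absent from the windows shown for Gpi1 and Eno1, but that of Eno1 holds GCGTG. Eno1 has 3 RefSeq starts, and none of its 3 windows held ACGTG on either strand. Over all RefSeq starts, 5 of the 10 enzymes held it in at least 1 window (Hk2, Aldoa, Pgk1, Pgam1 and Pkm), and 18.5% of 27025 genes with a promoter entry did. The canonical E-box CACGTG, the site that MYC and MAX bind, contains ACGTG. It was in no window of the 10 enzymes (0 of 10), against 6.86% of the genes. A match is a description of letters in these windows, and an absent match says nothing of sites elsewhere.

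The levels of the 10 enzymes spanned a wide range and kept the same order of means in both groups. Glyceraldehyde-3-phosphate dehydrogenase (Gapdh) was the most abundant, at 5049 ± 357 FPKM in PFOA and 5498 ± 353 in DMSO. It was followed by pyruvate kinase (Pkm, 1752 ± 36 and 1836 ± 42), Eno1, aldolase A (Aldoa, 993 ± 12 and 1017 ± 21) and phosphoglycerate mutase (Pgam1, 644 ± 5.8 and 657 ± 15). Phosphoglycerate kinase (Pgk1, 286 ± 3.6 and 279 ± 3.1) and glucose-6-phosphate isomerase (Gpi1, 251 ± 1.5 and 247 ± 2.7) came next. The kinases at the head of the pathway were lowest, with the liver-type phosphofructokinase (Pfkl) at 52.4 ± 1.8 and 51.7 ± 1.3, then Hk2, then Hk1 at 15.8 ± 0.52 and 15.9 ± 0.80. Neighbours in this order did not overlap in either group, except Pkm and Eno1, whose libraries overlapped in DMSO and not in PFOA. The place of Eno1 depends on how reads were split with its copy Eno1b, described below. The sum of that pair was 2388 to 2428 FPKM in PFOA and 2523 to 2553 in DMSO, above Pkm in each library. Gapdh was 2.94 times Pkm, and Gpi1 was 4.78 times Pfkl, on the means over the 6 libraries.

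**Figure D1:**
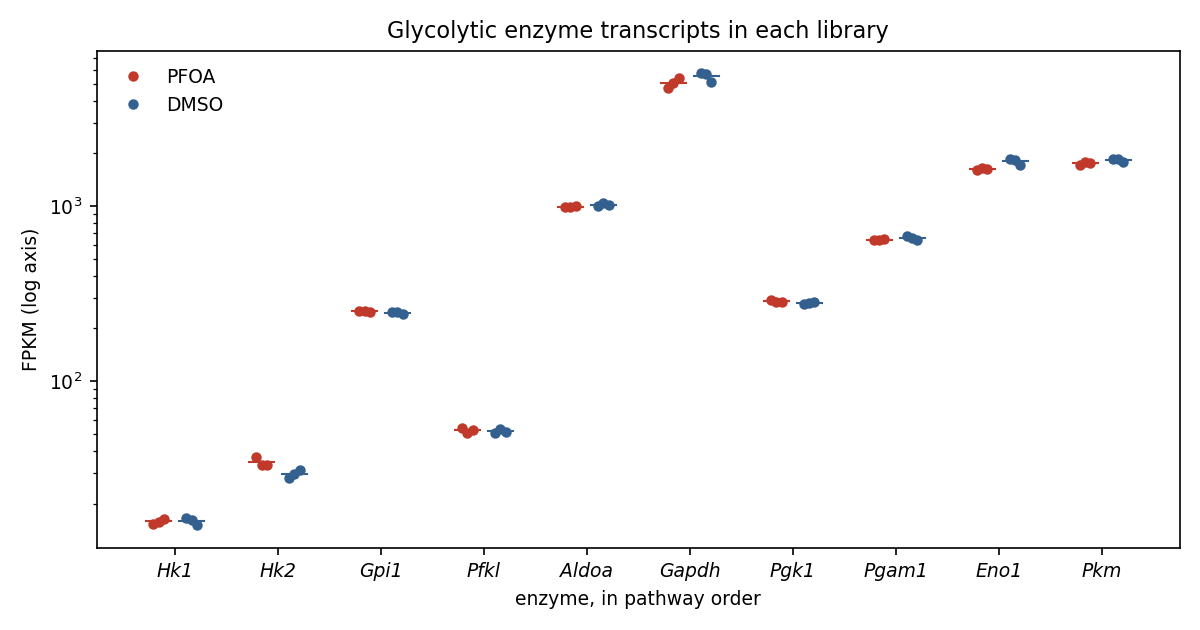
FPKM of each enzyme in each library on a log axis, in pathway order, with PFOA in red and DMSO in blue; points are libraries and bars are group means. Hk1, at 15.8 FPKM in PFOA and 15.9 in DMSO, and Gapdh, at 5049 and 5498, are the ends of the range.

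The 10 enzymes together made up 1.76%, 1.70% and 1.78% of all FPKM in PFOA 1 to 3, against 1.79%, 1.78% and 1.69% in DMSO 1 to 3. The share was 1.75 ± 0.043% in PFOA and 1.75 ± 0.054% in DMSO, and the groups overlapped. Their summed FPKM was 10710 ± 401 in PFOA and 11430 ± 491 in DMSO, of which Gapdh alone was 47.1 ± 1.6% and 48.1 ± 1.1%.

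Hexokinases trap glucose in the cell as glucose 6-phosphate, and Hk2 is the inducible member of the pair. Hk2 was 36.7, 33.4 and 33.0 FPKM in PFOA 1 to 3, against 28.0, 29.5 and 31.3 in DMSO 1 to 3. Every PFOA library lay above every DMSO library, and PFOA 1 was the highest of the 6. The log2 fold change on log2(FPKM + 1) was 0.21 (SE 0.056, 95% confidence interval 0.081 to 0.34), which did not pass (limma with Benjamini-Hochberg adjusted p = 0.134). It was 0.16 without PFOA 1 and 0.13 with DMSO 3 as the lone control. It stayed above 0 in each of the 19 alternatives, some of which, such as a change of filter, cannot alter it. The smallest limma adjusted p among them was 0.0856. Hk1, the widely expressed form, was 15.4, 15.7 and 16.4 FPKM in PFOA and 16.6, 16.2 and 15.1 in DMSO, and the groups overlapped (log2 fold change −0.0099, SE 0.050, limma adjusted p = 0.929). Its interval ran from −8.32% to 7.58%.

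Hk2 was thus the more abundant of the hexokinases in each library. It made up 70.5%, 68.0% and 66.8% of the summed Hk1 and Hk2 FPKM in PFOA, against 62.8%, 64.6% and 67.5% in DMSO. DMSO 3 lay above PFOA 3, so the groups overlapped. The ratio of Hk2 to Hk1 was 2.18 ± 0.19 in PFOA and 1.86 ± 0.20 in DMSO (SD, n = 3 each; two-sided exact permutation p = 0.2, adjusted p = 0.4 over 6 isozyme pairs). With 3 against 3 libraries that test cannot give a p below 0.1.

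Glucose-6-phosphate isomerase turns glucose 6-phosphate into fructose 6-phosphate. Gpi1 was 252.0, 251.7 and 249.2 FPKM in PFOA, against 248.6, 247.7 and 243.5 in DMSO. The PFOA libraries all lay above the DMSO libraries (log2 fold change 0.025, SE 0.033, limma adjusted p = 0.693). Phosphofructokinase commits the sugar to glycolysis. Its liver-type gene Pfkl was 54.0, 50.4 and 52.8 FPKM in PFOA and 50.7, 53.2 and 51.1 in DMSO, and the groups overlapped (0.020, SE 0.040, limma adjusted p = 0.81). Pfkl made up 47.8 ± 0.31% of the summed FPKM of the phosphofructokinase genes Pfkl, Pfkm and Pfkp in PFOA, against 48.6 ± 1.3% in DMSO. The muscle type Pfkm was 29.6 ± 0.57 FPKM in PFOA and 29.1 ± 1.2 in DMSO, and the platelet type Pfkp 27.8 ± 2.3 and 25.5 ± 0.64. The ratio of Pfkl to Pfkp was 1.89 ± 0.092 in PFOA and 2.02 ± 0.081 in DMSO (exact permutation p = 0.2, adjusted p = 0.4), and that of Pfkl to Pfkm 1.77 ± 0.051 and 1.78 ± 0.12 (exact permutation p = 0.9, adjusted p = 0.9).

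Aldolase splits the hexose into triose phosphates. Aldoa was 987, 984 and 1007 FPKM in PFOA, against 1001, 1041 and 1010 in DMSO, and PFOA 3 lay between the DMSO libraries (log2 fold change −0.035, SE 0.042, limma adjusted p = 0.664). The brain-type aldolase Aldoc stood far below it, at 4.88, 4.90 and 5.00 FPKM in PFOA and 4.76, 4.51 and 4.02 in DMSO. The ratio of Aldoa to Aldoc was 202, 201 and 201 in PFOA and 210, 231 and 251 in DMSO. This was the only one of the 6 isozyme ratios whose groups did not overlap (exact permutation p = 0.1, the smallest possible, adjusted p = 0.4). Triose phosphate isomerase (Tpi1) interconverts the triose phosphates and was 166, 178 and 181 FPKM in PFOA and 184, 187 and 177 in DMSO (log2 fold change −0.065, limma adjusted p = 0.42).

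Glyceraldehyde-3-phosphate dehydrogenase carries out the oxidative step of the pay-off phase, and its gene is a common loading control. Gapdh was 4702, 5030 and 5416 FPKM in PFOA, against 5727, 5676 and 5091 in DMSO. DMSO 3 lay below PFOA 3, so the groups overlapped, and Gapdh had the highest coefficient of variation of the 10 enzymes in both groups, 7.07% in PFOA and 6.43% in DMSO. Its log2 fold change was −0.12 (SE 0.080, 95% confidence interval −0.31 to 0.061, limma adjusted p = 0.409), −0.073 without PFOA 1 and −0.014 with DMSO 3 as the lone control. As a share of all FPKM, Gapdh was 0.803%, 0.798% and 0.869% in PFOA and 0.874%, 0.864% and 0.793% in DMSO.

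Phosphoglycerate kinase makes the first ATP of the pay-off phase. Pgk1, the gene with the second pair of cores printed above, was 290, 284 and 283 FPKM in PFOA, against 275, 279 and 282 in DMSO. Each PFOA library lay above each DMSO library, and the difference did not pass (log2 fold change 0.037, SE 0.034, limma adjusted p = 0.56). Phosphoglycerate mutase moves the phosphate for the enolase step. Pgam1 was 641, 640 and 651 FPKM in PFOA, against 673, 655 and 642 in DMSO, and the groups overlapped (−0.028, SE 0.040, limma adjusted p = 0.712).

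Enolase makes phosphoenolpyruvate. Eno1 was 1616, 1645 and 1634 FPKM in PFOA, against 1849, 1839 and 1710 in DMSO. All PFOA libraries lay below all DMSO libraries, and DMSO 3 stood apart from DMSO 1 and 2 towards PFOA. The log2 fold change was −0.14 (SE 0.051, 95% confidence interval −0.26 to −0.023, limma adjusted p = 0.184), so it missed the threshold. It was −0.068 with DMSO 3 as the lone control.

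Eno1 has a near-identical copy in the table, Eno1b: 70.5% of the 50-nt words of the longest Eno1 transcript also occur in it, so its values depend on how the authors' counting split such reads. Eno1b was 772, 784 and 790 FPKM in PFOA, against 673, 714 and 823 in DMSO. Eno1 made up 67.7%, 67.7% and 67.4% of the summed FPKM of the pair in PFOA 1 to 3, against 73.3%, 72.0% and 67.5% in DMSO 1 to 3. The split in DMSO 3 was that of the PFOA libraries, and DMSO 1 and 2 stood apart from the other 4. The sum of the pair was 2388, 2428 and 2424 FPKM in PFOA, against 2523, 2553 and 2533 in DMSO. The sum varied less between DMSO libraries (SD 15.3) than Eno1 alone (SD 77.5), and each PFOA library again lay below each DMSO library. In a fit on the sum, chosen after the data were seen, the log2 fold change was −0.072 (SE 0.048, limma adjusted p = 0.422). The other enolases were minor: the muscle form Eno3 was 12.5 ± 1.3 FPKM in PFOA and 13.4 ± 1.5 in DMSO, and the neuronal form Eno2 6.35 ± 0.18 and 6.79 ± 0.11. The ratio of Eno1 to Eno3 was 131 ± 13 in PFOA and 136 ± 19 in DMSO (exact permutation p = 0.6, adjusted p = 0.84).

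**Figure D2:**
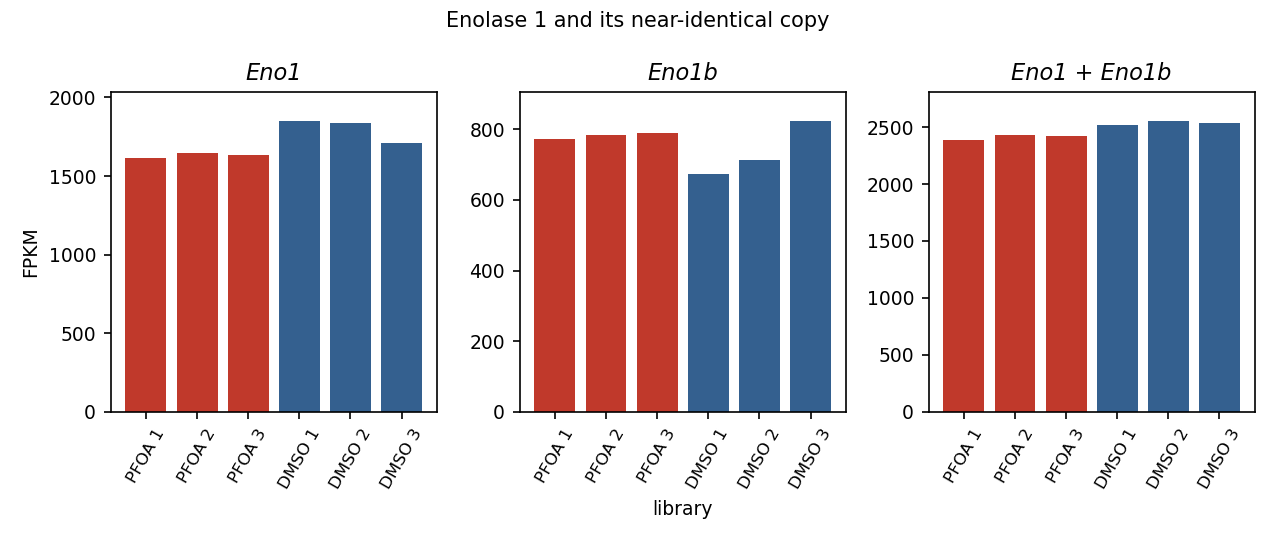
FPKM of Eno1, Eno1b and their sum in each library, PFOA in red and DMSO in blue; each bar is a library and each panel has its own axis from 0. Eno1b is 772 to 790 FPKM in PFOA, against 673 and 714 in DMSO 1 and 2 and 823 in DMSO 3, while the sum is 2388 to 2428 in PFOA and 2523 to 2553 in DMSO.

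Pyruvate kinase makes pyruvate and ATP. Pkm was 1711, 1778 and 1766 FPKM in PFOA, against 1865, 1855 and 1788 in DMSO. The PFOA libraries all lay below the DMSO libraries, and PFOA 2 was close to DMSO 3 (log2 fold change −0.067, SE 0.048, limma adjusted p = 0.45). The table gives a single value for the gene, so its splice forms M1 and M2 are not separated. The liver and red cell isozyme Pklr was at 0.46 to 0.90 FPKM in PFOA and 0.44 to 0.84 in DMSO, below the level required for testing.

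Counted over the set, 4 enzymes had a positive and 6 a negative log2 fold change, with a median of −0.019, beside −0.0065 over all tested genes. Leaving out a library moved this median between −0.042 (without DMSO 3) and −0.0020 (without DMSO 1), and the signs were 5 and 5 without DMSO 1 or DMSO 2. Groups did not overlap for 3 enzymes that were higher in PFOA (Hk2, Gpi1, Pgk1), where the background is 13.5% of tested genes, and for 2 that were lower (Eno1, Pkm), where it is 13.7%. All 10 passed the filter on low values. The 95% confidence intervals reached from −19.2% for Gapdh to 26.4% for Hk2, and their half-widths on the log2 scale ran from 0.076 to 0.18. The intervals of Hk2 and Eno1, which are not adjusted for the number of genes, did not include 0, and those of the other 8 enzymes did.

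**Figure D3:**
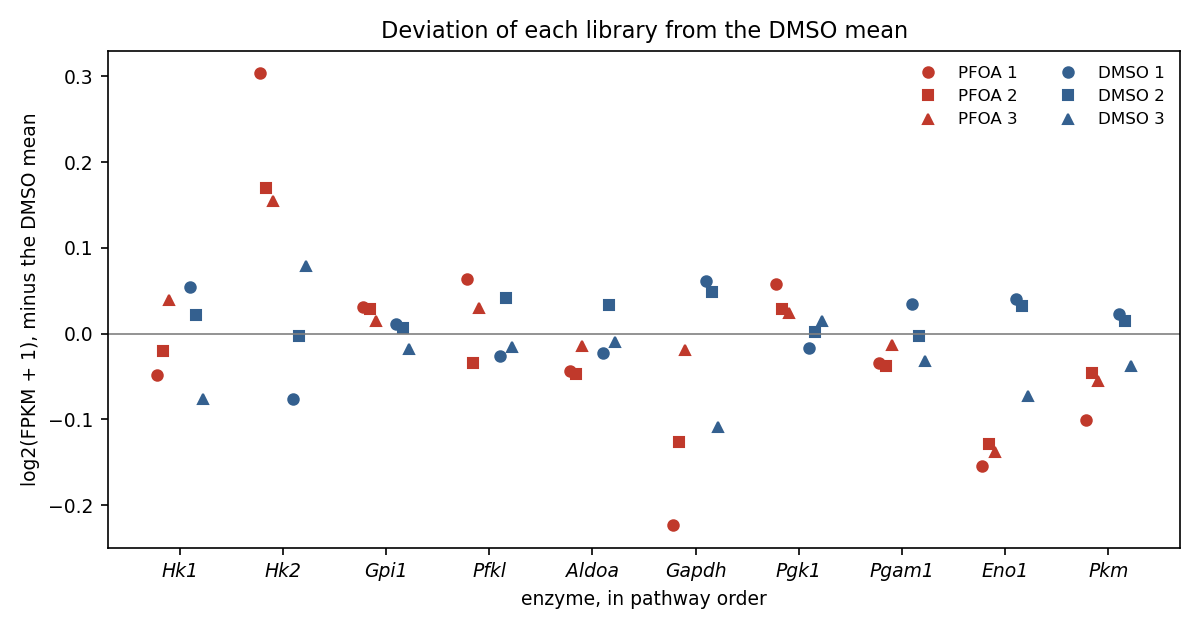
log2(FPKM + 1) of each library minus the DMSO mean of that enzyme, in pathway order; red symbols are PFOA libraries, blue symbols DMSO libraries, and the shape gives the replicate number. All PFOA libraries lie above all DMSO libraries for Hk2, Gpi1 and Pgk1 and below them for Eno1 and Pkm; for Gapdh PFOA 1, at 4702 FPKM, is the lowest of the 6 libraries.

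The sign of several enzymes depended on how libraries were put on a common scale. With FPKM rescaled to equal library totals, a fit chosen after the data were seen, the median of all tested genes moved to 0.071 and that of the enzymes to 0.066, and 8 enzymes were positive and 2 negative. Hk2 was then 0.29 (limma adjusted p = 0.0856), Gapdh −0.035 (0.723), Eno1 −0.052 (0.501) and Pkm 0.021 (0.796). Under quantile normalization 9 enzymes were positive, with Eno1 at −0.011, and the median was 0.071, beside 0.010 over all genes. Over all tested genes, 27.5% were negative with equal totals and 46.3% under quantile normalization.

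Transcript length moved with the groups as well. Over all tested genes whose longest coding transcript was from 1000 to under 2000 nt, the median log2 fold change was −0.091 (n = 2380). For those from 2000 to under 4000 nt it was −0.013 (n = 4655), and from 4000 nt up it was 0.066 (n = 3809). Gapdh (1420 nt), Aldoa (1549 nt), Pgam1 (1775 nt) and Pgk1 (1825 nt) belong to the shortest of these classes, and Hk1 (4278 nt) and Hk2 (5513 nt) to the longest. Across the 10 enzymes, which share libraries, Spearman's rho between length and log2 fold change was 0.58, beside 0.60 across 11536 tested genes with a length. With a per-library trend on length removed, the median of the enzymes was 0.025, beside 0.0022 over all genes, Hk2 stood at 0.15 (limma adjusted p = 0.27), Eno1 at −0.083 (0.375), Gapdh at −0.022 (0.892) and Pgk1 at 0.11 (0.29). Aldoa and Pgam1 then had positive values of 0.056 and 0.046.

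**Figure D4:**
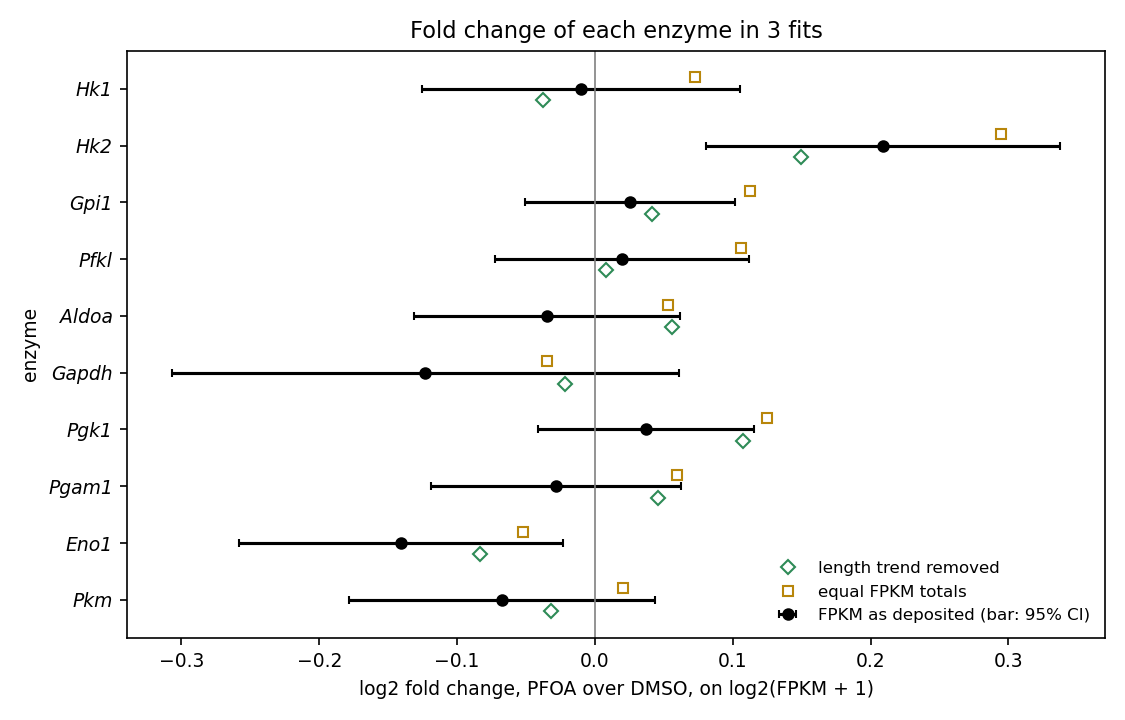
log2 fold change of each enzyme, PFOA over DMSO, with FPKM as deposited (black, bars are 95% confidence intervals from limma), with the length trend removed (green) and with equal FPKM totals (gold). Hk2 is positive in all 3 fits (0.21, 0.15 and 0.29) and Eno1 and Gapdh are negative in all 3, while Hk1, Aldoa, Pgam1 and Pkm are on both sides of 0.

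Shared sequence limits the values of other enzymes too. At least 20% of the 50-nt words of the longest coding transcript occur in transcripts of other genes for 5 of the 10 enzymes: Gapdh (82.5%), Eno1 (72.2%), Pgk1 (68.0%), Pgam1 (41.5%) and Pkm (34.4%). For Gapdh, 99 other annotated genes hold at least 5% of its words, and 2 of them are in the table. Hk1 and Hk2 share no such word with another gene. Among the neighbouring genes described below, Pdhb (30.3%), Minpp1 (29.1%), Ldhb (27.0%), Pfkfb2 (25.1%) and Mpc1 (23.2%) also reach 20%.

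The genes around the pathway were read from lists that hold 68 genes of the table, of which 52 passed the filter on low values. None of them was called (0 of 52 in limma). An unadjusted limma p below 0.05 was reached by 4 with a positive and 4 with a negative value, where the background over all tested genes is 8.56% and 12.5%. In all, 25 were positive and 27 negative, and the median was −0.012. Groups did not overlap for 7 that were higher in PFOA and 6 that were lower, and 39 overlapped. The background is 13.5% of tested genes higher and 13.7% lower. Most genes named below have the lowest p of their list, so their lack of overlap is not typical of the lists.

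Glucose enters through the facilitative transporters. Slc2a1 was 133, 133 and 135 FPKM in PFOA, against 133, 122 and 119 in DMSO, and the groups overlapped through DMSO 1 (log2 fold change 0.10, SE 0.047, limma adjusted p = 0.253). Slc2a3, the more abundant, was 418, 410 and 394 FPKM in PFOA and 388, 382 and 401 in DMSO (0.060, limma adjusted p = 0.423). Of the 4 tested transporters 2 were positive and 2 negative, and Slc2a8 was 6.26 ± 0.34 FPKM in PFOA and 6.45 ± 0.27 in DMSO. Slc2a4, the insulin-responsive transporter of muscle and fat, was at 0.69 to 1.22 and 1.00 to 1.15. The hexokinase Hk3 was at most 0.09 FPKM in any library.

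Among the enzymes that set the level of fructose 2,6-bisphosphate, the activator of phosphofructokinase, Pfkfb2 was 3.82, 3.56 and 3.51 FPKM in PFOA, against 3.05, 3.15 and 3.41 in DMSO, with no overlap (log2 fold change 0.14, SE 0.065, limma adjusted p = 0.261). Pfkfb3 was 4.08 ± 0.18 FPKM in PFOA and 3.69 ± 0.35 in DMSO, and Pfkfb4 1.62 ± 0.059 and 1.69 ± 0.21. Minpp1, an inositol polyphosphate phosphatase, was 22.6 ± 1.2 and 22.9 ± 0.045.

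Lactate and pyruvate handling had 1 positive and 7 negative values of 8 tested, with a median of −0.082. The tally was 3 positive and 5 negative with the length trend removed (median −0.016), and 4 and 4 with equal totals (median 0.0061). Lactate dehydrogenase A (Ldha) reduces pyruvate to lactate, and was 567, 590 and 578 FPKM in PFOA, against 606, 615 and 606 in DMSO, with no overlap (log2 fold change −0.074, SE 0.039, limma adjusted p = 0.303). It was −0.0033 with the length trend removed and 0.013 with equal totals. Its partner Ldhb was 124 ± 8.9 FPKM in PFOA and 132 ± 7.9 in DMSO, and the ratio of Ldha to Ldhb was 4.67 ± 0.32 and 4.62 ± 0.30 (exact permutation p = 0.7, adjusted p = 0.84). The mitochondrial pyruvate carrier subunit Mpc1 was 14.6, 16.9 and 16.7 FPKM in PFOA, against 20.3, 18.5 and 18.4 in DMSO, with no overlap (−0.23, SE 0.064, limma adjusted p = 0.135). Its transcript is short (961 nt), and the value was −0.091 with the length trend removed and −0.15 with equal totals. The other carrier subunit, Mpc2, was 10.2 ± 2.2 and 11.8 ± 0.70, and basigin (Bsg), the chaperone of lactate transporters, 326 ± 6.9 and 341 ± 14.

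The pyruvate dehydrogenase complex links glycolysis to the citric acid cycle, and pyruvate dehydrogenase kinases switch it off. All 12 genes of the list were tested, and 7 were positive and 5 negative. The negative values were those of the 5 subunits, of which Pdha1 and Dlat were positive (0.065 and 0.022) with equal totals. The subunit Pdhb was 201, 236 and 224 FPKM in PFOA, against 259, 260 and 244 in DMSO, with no overlap (log2 fold change −0.21, SE 0.060, limma adjusted p = 0.141). Dld, the shared dehydrogenase subunit, was 33.9, 34.0 and 33.9 FPKM in PFOA, against 36.5, 36.5 and 37.5 in DMSO (−0.11, SE 0.035, limma adjusted p = 0.145). Pdhx was 16.7 ± 0.47 FPKM in PFOA and 18.4 ± 0.34 in DMSO (−0.13, limma adjusted p = 0.155). These 3 subunits had no overlap between groups, while the remaining subunits Pdha1 and Dlat did overlap; the background of no overlap with lower values in PFOA is 13.7% of tested genes. The kinase Pdk1, a known HIF target, was 12.8, 10.7 and 11.6 FPKM in PFOA, against 9.30, 10.3 and 10.2 in DMSO, with no overlap (0.22, SE 0.070, limma adjusted p = 0.158). After removal of the length trend, they stood at −0.11 for Pdhb, −0.084 for Dld, −0.099 for Pdhx and 0.16 for Pdk1. With equal totals they stood at −0.12, −0.029, −0.048 and 0.30 in the same order.

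Gluconeogenic enzymes were low. G6pc3 was 6.68 ± 0.73 FPKM in PFOA and 7.26 ± 0.59 in DMSO, mitochondrial Pck2 7.05 ± 0.40 and 7.52 ± 0.59, pyruvate carboxylase (Pcx) 5.73 ± 0.32 and 5.93 ± 0.55, and Fbp2 2.81 ± 0.070 and 2.77 ± 0.46. All 4 tested genes overlapped between groups.

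Of 8 transcription factors known to drive glycolytic genes, 6 were positive and 2 negative, with a median of 0.073. With equal totals all 8 were positive (median 0.15), beside a median of 0.071 and 27.5% negative over all tested genes. With the length trend removed, 6 were positive and 2 negative (median 0.049). Hif1a was 46.1, 46.1 and 46.1 FPKM in PFOA, against 43.7, 43.1 and 44.1 in DMSO, with no overlap (log2 fold change 0.078, SE 0.033, limma adjusted p = 0.228). Its relative Epas1 was 13.7, 13.0 and 12.1 FPKM in PFOA, against 10.7, 11.9 and 11.9 in DMSO (0.15, limma adjusted p = 0.205). The glucose-sensing factor Mlxip was 10.1 ± 0.97 FPKM in PFOA and 8.85 ± 0.16 in DMSO (0.17, limma adjusted p = 0.20). All 3 have long transcripts (4724, 5516 and 7303 nt). After removal of the length trend, their values were 0.038, 0.095 and 0.077, and with equal totals 0.16, 0.24 and 0.25. Myc was 26.1 ± 0.71 FPKM in PFOA and 24.7 ± 1.3 in DMSO and overlapped (0.077, limma adjusted p = 0.375), and its partner Max was 65.0 ± 2.0 and 68.7 ± 1.9.

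**Figure D5:**
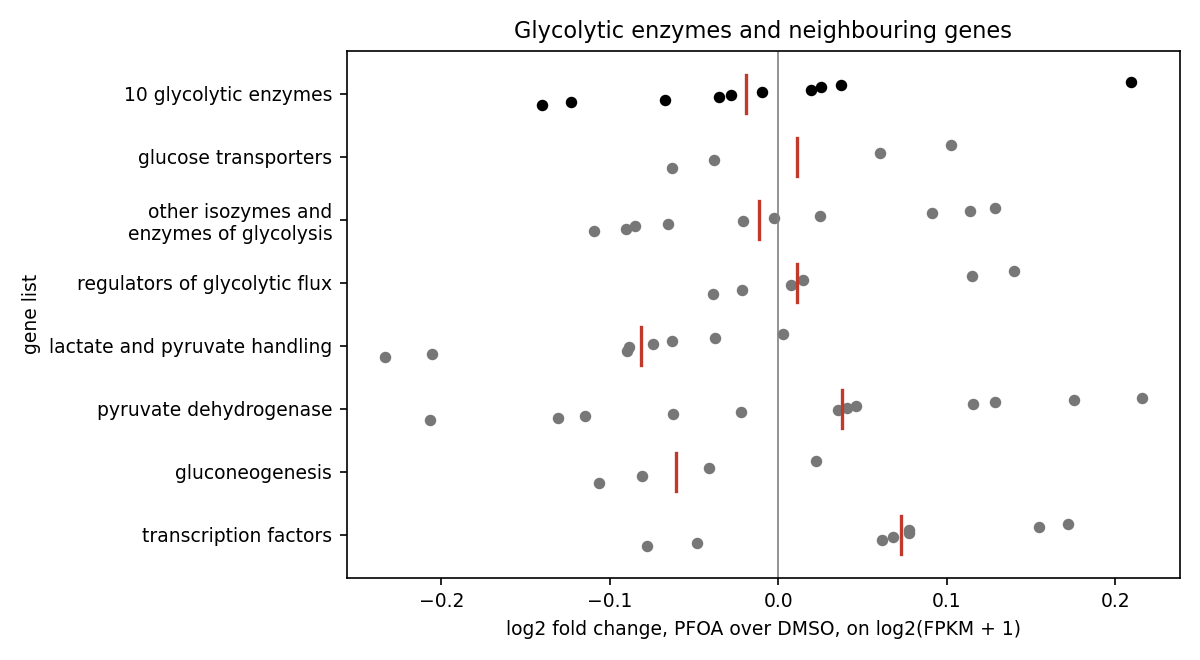
log2 fold change, PFOA over DMSO, of the 10 enzymes (black) and of the tested genes of each neighbouring list (grey); red bars are list medians. Lactate and pyruvate handling has the lowest median (−0.082) and the transcription factors the highest (0.073) with FPKM as deposited, and no point passed the test.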

How the data were processed

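RNA-seq libraries of 3 PFOA and 3 DMSO samples were used. The authors deposited FPKM values to 2 decimals, 1 column per library, for 18388 upper-case symbols, of which 18234 matched a mouse gene name. Per the submitters' processing notes, HISAT2 2.0.4, Bowtie2 2.2.5 and build GRCm39 were used. The roles, the counting tool and the annotation: not given in the sources used here. Values of FPKM depend on the transcript length and library total assumed. At 2 decimals, low values are too coarse to recover whole reads, so the depth is unknown.

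Groups and replicate numbers come from the titles. log2(FPKM + 1) of the 11876 genes with a mean of at least 1 FPKM was compared in R 4.3.3 with limma 3.58.1 and its trend of variance on level, two-sided, Benjamini-Hochberg adjusted over all tested genes. Simulated data, with 200 changed genes per run, were used to test the script. The 19 alternatives changed the pseudocount, filter, scaling, length trend, weights, block or libraries. Isozyme ratios had exact permutation tests (scipy 1.17.1). Lengths and 50-nt words came from GENCODE M21 and promoters from RefSeq, both on GRCm38.

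The enzymes and lists were chosen with earlier results of these data known. Genes are named by rule: all enzymes, up to 4 genes per neighbouring list with the lowest p, isozyme pairs, and Tpi1, Ldha, Slc2a1, Slc2a3, Myc and Hif1a. Hk3, Eno1b, Pdha1 and Dlat were added afterwards.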

Additional observations from a re-analysis of the deposited data

How the results depend on the processing

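No enzyme and no neighbouring gene was called in limma in any of the 19 alternatives (0 and 0). Of 190 values of single enzymes, 172 kept their sign, those of Hk2, Gpi1, Pgk1 and Eno1 in every alternative. Changes of filter, intensity trend or replicate block leave every fold change as it was, and the sum with Eno1b alters only that of Eno1. Part of the 172 therefore kept their sign by design. Over all genes 1 was called; the count was 0 without the filter, without the intensity trend, with the length trend removed, with DMSO 3 as the lone control and with the replicate block, 2 with library weights, and 0 to 94 leaving out a library (94 without PFOA 2, 52 without DMSO 3; 0 without PFOA 3, DMSO 1 or DMSO 2). Same-numbered libraries did not deviate together (r −0.107, −0.0095 and −0.138), where the other combinations gave r from −0.065 to 0.148. With 3 libraries a group, this cannot settle whether the numbers pair them.

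The median of the enzymes moved to 0.071 under quantile normalization, 0.025 with the length trend removed, 0.066 with equal totals and 0.013 with DMSO 3 as the lone control. Signs turned for Aldoa (0.13, 0.056 and 0.053 with quantile normalization, the length trend removed and equal totals), Pgam1 (0.055, 0.046 and 0.060; 0.0040 with DMSO 3 alone), Pkm (0.082 and 0.021 with quantile normalization and equal totals), Gapdh (0.014, quantile), Hk1 (0.0010, quantile; 0.073, equal totals; 0.067, DMSO 3 alone; −0.048 to 0.017 leaving out a library) and Pfkl (−0.0037 with library weights; −0.0023 to 0.047 leaving out a library). Leaving out a library, the log2 ratio difference was −0.037 to 0.048 for Pfkl/Pfkm, −0.12 to 0.071 for Eno1/Eno3 and −0.036 to 0.073 for Ldha/Ldhb. The cause was not tested. Precision is limited by 3 libraries a group.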
